A study of Mus musculus with 24 samples.

Results

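The mRNAs described here encode scaffold, helicase and cofactor proteins that work with the cap-binding protein of the eIF4F complex. They are the scaffolds eIF4G1 and eIF4G3, the DEAD-box RNA helicases eIF4A1 and eIF4A2, and the helicase cofactors eIF4B and eIF4H. The related helicase eIF4A3, which acts outside that complex, is included. Members were taken by gene symbol from the count tables, and 7 of the 8 genes listed, out of 12759 transcripts in all, were used. Eif4g2 was not analysed here. Counts came from N2a cells, a mouse neuroblastoma line, that had been transfected with Cas9 vectors carrying guides against exons of Eif4e3 (KO) or with the empty vector (ctrl), each in 2 rounds with puromycin selection. No cloning step is described in the methods, so KO is read here as a selected population. Both lines received 250 nM Torin1, which blocks the mTOR kinase, or its solvent DMSO for 2 h. Total RNA (RNA-seq) and ribosome footprints (ribo-seq) were sequenced in triplicate in the conditions ctrl DMSO, ctrl Torin1, KO DMSO and KO Torin1. All libraries were used here except ribo-seq ctrl DMSO replicate 2, which the authors removed from their downstream analysis after comparing samples, so that 2 libraries represent that condition. The design asks how these mRNAs and their translation respond to Torin1, and whether loss of eIF4E3 changes that.

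In cap-dependent initiation the cap-binding protein holds the 5′ end of the mRNA, eIF4G bridges it to the small ribosomal subunit through eIF3, and eIF4A unwinds secondary structure in the 5′ leader with the help of eIF4B or eIF4H. mTOR acts on this machinery through the 4E-BPs, which compete with eIF4G for the cap-binding protein, and through S6 kinase, which phosphorylates eIF4B and the eIF4A inhibitor PDCD4. eIF4A3 is a close relative of the other helicases but belongs to the exon junction complex, which is deposited on spliced mRNA in the nucleus.

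The helicases are similar enough in sequence for reads to be assigned to the wrong gene, so their coding sequences were compared first. Over the CDS, identity was 78.5% between Eif4a1 and Eif4a2, 67.5% between Eif4a1 and Eif4a3 and 67.2% between Eif4a2 and Eif4a3, and it was 64.6% between Eif4g1 and Eif4g3. The 30 nt that code for the DEAD motif and its surroundings are printed here from the matched GENCODE transcripts, with capitals at the positions that are not the same in all 3 helicases. They are shown because this is one of the most conserved stretches of the family and still separates the members, with 4 differences of Eif4a2 and 7 of Eif4a3 from Eif4a1.
Eif4a1: TtCgtACtggaTgaAgcAgatgaaatgttA
Eif4a2: TtCgtTTtggaCgaAgcAgatgaaatgttG
Eif4a3: CtGgtTTtggaTgaGgcTgatgaaatgttG
They begin at CDS positions 535, 538 and 550, respectively. No stretch of 28 nt of the CDS of Eif4g1, Eif4g3, Eif4a1, Eif4a2, Eif4b or Eif4h was found in the full sequence of another matched transcript. In contrast, 560 of the 1209 stretches of Eif4a3 (46.3%) were also present in Eif4a3l1 or Eif4a3l2, which are near-identical copies, so the values of Eif4a3 are uncertain. In ribo-seq the counts of each copy reached 22.2% (Eif4a3l1) and 25.8% (Eif4a3l2) of those of Eif4a3 in the library where they were highest, against 1.18% and 3.91% in RNA-seq.

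The mRNAs that depend most on mTOR carry a terminal oligopyrimidine (TOP) motif, an uninterrupted run of C and T that begins at the cap. The 25 bases around the annotated start of Eif4a1, Eif4a2 and Eif4b, and of the known TOP mRNA Eif3f, chosen as examples after the values were seen, were taken from RefSeq (GRCm38.p6), each with 10 bases before the start and 15 from it on, and with capitals at the longest run of C and T. They are shown to set what the annotated starts hold beside the responses.
Eif4a1: gtaacgTCacgtcgagttgcagagc
Eif4a2: gaaaCCCCgtaggagcagggcggcc
Eif4b: tcccgtcggacgccgcgccaCCCCC
Eif3f: tctaggCTCTCTCTCTTTCTCggca
These windows lie at chr11:69672409-69672433 (minus strand), chr16:23107458-23107482 (plus), chr15:102073763-102073787 (plus) and chr7:108934405-108934429 (plus). The longest run anywhere in the window was 2 bases for Eif4a1, 4 for Eif4a2, 5 for Eif4b and 15 for Eif3f. Runs as long were present in the windows of 97.7%, 62.1%, 40.7% and 0.685% of 32851 promoters, respectively. Of the printed runs only that of Eif3f spanned the annotated start. Those of Eif4a1 and Eif4a2 lay within the 10 bases before the start, and that of Eif4b was at the end of the window. The members not printed had runs of 6 (Eif4g1, 24.4% of promoters), 5 (Eif4a3), 4 (Eif4g3) and 3 bases (Eif4h). None of those was called lower in translation efficiency with Torin1 in the main tests below. A link between run length and response was not tested. Eef2, also a TOP mRNA, had a run of 2 bases in its window, so an annotated start can lie away from the one used and the absence of a run says nothing about the mRNA. The genes lie, in GENCODE M21 on GRCm38, at chr16:20672723-20692884 (Eif4g1, plus strand, 33 exons), chr4:137993456-138207079 (Eif4g3, plus, 36 exons), chr11:69666936-69672317 (Eif4a1, minus, 11 exons) and chr16:23107444-23113947 (Eif4a2, plus, 11 exons). Eif4a3 is at chr11:119288363-119300089 (minus, 12 exons), Eif4b at chr15:102073773-102097173 (plus, 15 exons) and Eif4h at chr5:134619877-134639347 (minus, 6 exons). In the transcripts to which the counts belong, the 5′ transcript leader (TL) was 16 nt for Eif4a1, 48 nt for Eif4h, 93 nt for Eif4a3, 178 nt for Eif4b, 188 nt for Eif4g1, 348 nt for Eif4a2 and 606 nt for Eif4g3, where the median of all transcripts was 171 nt. The TL of Eif4g3 was longer than that of 95% of transcripts. These lengths depend on the annotation. The RefSeq windows of Eif4a1 and Eif4h (chr5:134639395-134639419, minus) lie wholly upstream of the GENCODE transcripts used, so their leaders of 16 and 48 nt may be too short.

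RNA-seq libraries held 17048192 to 28911595 counts and ribo-seq libraries 669244 to 5285876, with the lowest total in ctrl DMSO replicate 3. Members were well covered, with 1847 to 39576 counts per RNA-seq library and 81 to 5818 footprints per ribo-seq library. Eif4e3, the targeted gene, was at 16.1 ± 3.59 CPM (CPM, counts scaled to the library total after TMM scaling, SD, n = 3) in ctrl DMSO and 3.85 ± 1.06 in KO DMSO by RNA-seq. With Torin1 the levels were 14.6 ± 2.43 in ctrl and 4.74 ± 0.276 in KO. Every KO library was below every ctrl library, with residual reads. Of 10 markers of sympathoadrenal neuroblastoma, 9 had counts, with a summed level of 948 to 1192 CPM in RNA-seq, whereas those of fibroblasts, blood cells, epithelium and glia summed to at most 4.07 CPM. In such bulk samples fewer expressing cells and less RNA per cell cannot be told apart.

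Levels were compared between members per kb of CDS (RPKM, from CPM after TMM scaling). In ctrl DMSO, Eif4a1 was the most abundant of the 7 in RNA-seq with 594 ± 61.0 RPKM (SD, n = 3), followed by Eif4h (446 ± 9.61), Eif4b (385 ± 22.7), Eif4a3 (377 ± 41.5), Eif4g1 (277 ± 23.7), Eif4a2 (90.6 ± 12.0) and Eif4g3 (64.0 ± 10.2). Within this order Eif4b and Eif4a3 were the only neighbours whose mean ± SD overlapped. The order of footprints was different. Eif4a1 (895 ± 108 footprint RPKM, n = 2) and Eif4h (735 ± 124) came first and overlapped, Eif4a3 (273 ± 12.7) and Eif4b (269 ± 10.6) did not differ beyond their spread, and Eif4a2 (139 ± 16.0) stood close to Eif4g1 (113 ± 14.7), with Eif4g3 (25.3 ± 3.66) last. Translation efficiency (TE) was taken as the ratio of footprint to RNA-seq CPM of the same replicate number. It was 1.63 ± 0.287 for Eif4h, 1.55 ± 0.0195 for Eif4a1 and 1.47 ± 0.337 for Eif4a2 in ctrl DMSO, with overlapping spreads, and 0.773 ± 0.0663 for Eif4a3, 0.679 ± 0.00561 for Eif4b, 0.402 ± 0.00708 for Eif4g1 and 0.378 ± 0.0135 for Eif4g3. Thus without Torin1 the TE of the helicase mRNAs of eIF4F and of Eif4h was several times that of both scaffolds. Since counts of both assays grow with CDS length, TE is a density and not a number of footprints per mRNA molecule. The same groups were seen in KO DMSO, where TE ranged from 1.35 ± 0.194 (Eif4h) to 1.88 ± 0.148 (Eif4a1) for these 3 mRNAs and from 0.356 ± 0.0578 (Eif4g3) to 0.379 ± 0.0591 (Eif4g1) for the scaffolds (n = 3).

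**Figure D1:**
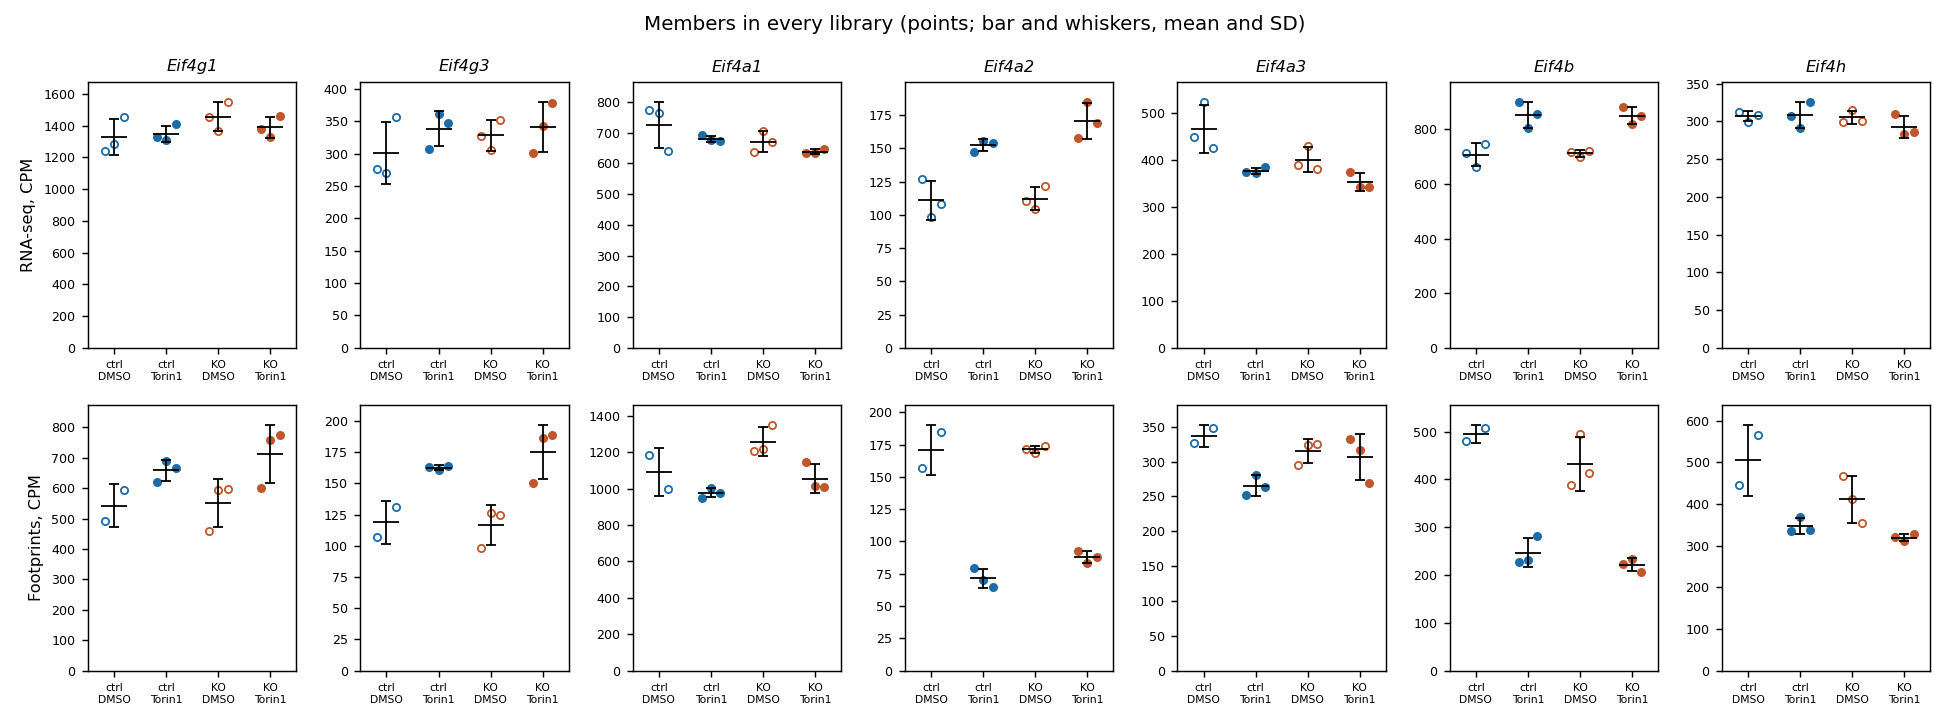
RNA-seq (top) and footprint (bottom) levels of the 7 members in every library, in CPM after TMM scaling, on linear axes from 0. Points are libraries (open, DMSO; filled, Torin1; blue, ctrl; orange, KO), and bars with whiskers give the mean and SD of a condition (n = 3, or 2 for footprints of ctrl DMSO). Footprints of Eif4a2 and Eif4b with Torin1 are below every DMSO library, whereas their RNA-seq levels with Torin1 are above every DMSO library.

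Torin1 moved the members in different directions. Each pair of conditions was fitted over all transcripts with edgeR's quasi-likelihood test, and a member was called where its p, adjusted by the Benjamini-Hochberg method over all transcripts, was under 0.05. In ctrl, footprints of 3 of the 7 members fell (Eif4a2, Eif4b and Eif4h) and those of 1 rose (Eif4g3), where 15.6% of 10693 transcripts were called, 9.93% lower and 5.69% higher. In KO, footprints of 4 fell (Eif4a1 in addition) and those of both scaffolds rose, where 40.6% of 10822 transcripts were called, 22.1% lower and 18.5% higher. The median log2 fold change of the members was -0.34 in ctrl and -0.27 in KO, beside 0.02 over all transcripts in both lines. In TE, Eif4a2 and Eif4b fell in ctrl, where 4.68% of 10432 transcripts were called, 4.29% lower and 0.383% higher. In KO both fell again and Eif4g1 and Eif4g3 rose, where 28.4% of 10535 transcripts were called, 17.8% lower and 10.6% higher. The median TE change of the members was -0.07 in ctrl and -0.20 in KO, beside -0.01 over all transcripts in both lines. At the mRNA level no member was called in ctrl, where 2.73% of 10958 transcripts were called (2516 had an unadjusted p under 0.05, and DESeq2 called Eif4a2 and 723 transcripts in all). In KO the mRNAs of Eif4a2 and Eif4b rose, where 9.97% of 11004 transcripts were called and 6.23% were higher. These changes are relative to the other transcripts of a library. With library size as the sole scaling, the typical transcript moved up in footprints by 0.23 (ctrl) and 0.26 (KO) and in TE by 0.16 and 0.24. The footprint calls then split into 684 falls and 1691 rises in ctrl, in place of 1062 and 608, and into 1532 and 3766 in KO, in place of 2391 and 1999. The TE calls split into 325 falls and 183 rises in ctrl, in place of 448 and 40, and into 1192 and 2700 in KO, in place of 1871 and 1119.

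**Figure D2:**
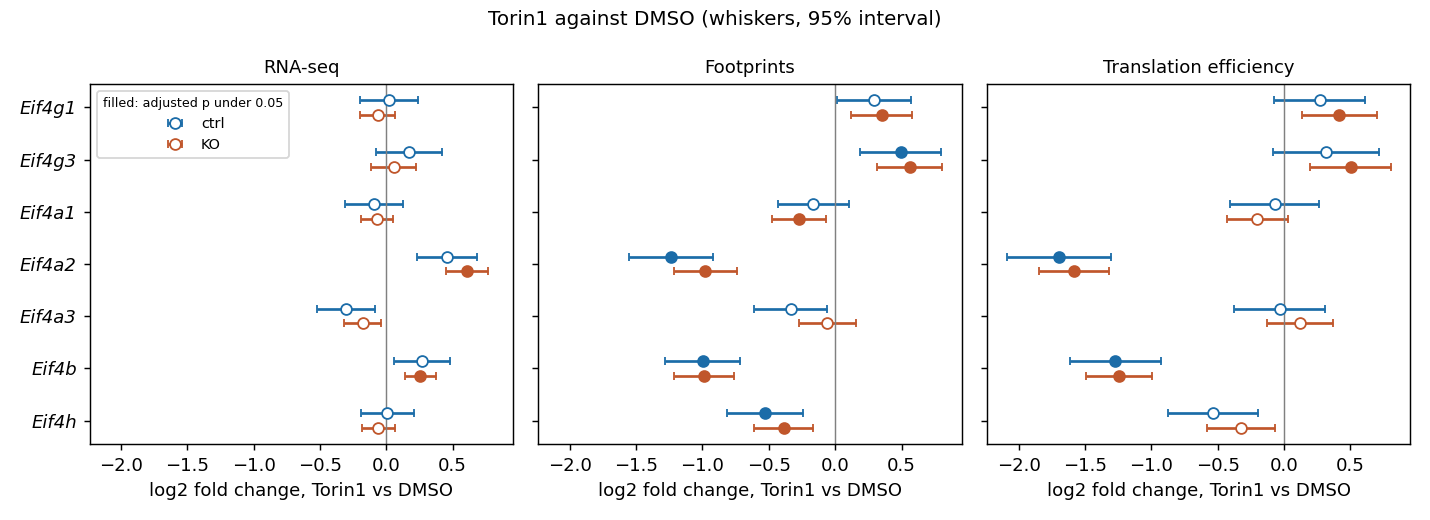
The log2 fold change of each member with Torin1 against DMSO in ctrl (blue) and KO (orange), for RNA-seq, footprints and TE. Whiskers give the 95% interval from the normal quantile, which can be narrower than the test allows. Filled points passed an adjusted p of 0.05 in edgeR's quasi-likelihood test. Eif4a2 and Eif4b lie right of 0 in RNA-seq and left of -0.97 in footprints and TE, while both scaffolds lie right of 0 in footprints and TE.

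Among the scaffolds, footprints were higher with Torin1 and mRNA levels showed no call. Eif4g3, the less abundant paralog, had 107 and 131 footprint CPM in ctrl DMSO and 163, 161 and 164 in ctrl Torin1. In KO it had 98.0, 127 and 125 CPM with DMSO and 150.3, 186 and 189 with Torin1. The treated libraries were above all DMSO libraries in both lines. Its footprints rose by a log2 fold change of 0.49 (SE 0.16, adjusted p = 0.0375, edgeR's quasi-likelihood test) in ctrl and of 0.56 (SE 0.13, adjusted p = 5.75e-04) in KO, that is 1.41-fold and 1.47-fold. The RNA-seq change was 0.17 (SE 0.13, adjusted p = 0.420) in ctrl and 0.06 (SE 0.09, adjusted p = 0.707) in KO, so TE rose by 0.50 in KO (SE 0.16, adjusted p = 0.0170), with 0.32 (SE 0.20, adjusted p = 0.484) in ctrl. The footprint call in ctrl was lost with DESeq2 (adjusted p = 0.0868) and without ctrl DMSO replicate 1 (log2 fold change 0.31, adjusted p = 0.412) or any of ctrl Torin1 replicates 1, 2 and 3 (0.0659, 0.137 and 0.134). The TE call in KO was lost without RNA-seq KO DMSO replicate 3 or KO Torin1 replicate 1, or ribo-seq KO Torin1 replicate 2 or 3, with an adjusted p of 0.0518, 0.0602, 0.0573 and 0.0539, respectively.

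Eif4g1, the main scaffold of eIF4F, behaved likewise with a smaller change. It had 493 and 593 footprint CPM in ctrl DMSO and 620.0, 689 and 666 in ctrl Torin1. In KO the values were 460.3, 595 and 596 CPM with DMSO and 602, 759 and 776 with Torin1. Treated libraries were again above all untreated ones, but the gap between the groups was small. The log2 fold change of footprints was 0.35 (SE 0.12, adjusted p = 0.0159, edgeR's quasi-likelihood test) in KO and 0.29 (SE 0.14, adjusted p = 0.184) in ctrl. RNA-seq changed by 0.02 (SE 0.11, adjusted p = 0.917) in ctrl and by -0.07 (SE 0.07, adjusted p = 0.565) in KO, and TE by 0.42 (SE 0.14, adjusted p = 0.0316) in KO and 0.27 (SE 0.17, adjusted p = 0.491) in ctrl. In KO, leaving out ribo-seq KO DMSO replicate 1, KO Torin1 replicate 2 or KO Torin1 replicate 3 ended the footprint call (adjusted p = 0.0943, 0.108 and 0.0971) and the TE call (0.0780, 0.0939 and 0.0955), as did, for TE, leaving out RNA-seq KO DMSO replicate 1 or 3 or KO Torin1 replicate 1 or 2 (0.0605, 0.0863, 0.0645 and 0.0830). In ctrl, footprints of Eif4g1 were called without scaling (adjusted p = 0.0185) and without ctrl DMSO replicate 3 (log2 fold change 0.42, adjusted p = 0.0464).

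Eif4a2, which encodes the helicase found with eIF4A1 in eIF4F and prominent in neuronal tissue, showed opposite changes of mRNA and footprints. Its RNA-seq level was 127, 98.1 and 108 CPM in ctrl DMSO and 147, 156 and 154 in ctrl Torin1, and 110.4, 104 and 122 in KO DMSO and 158, 185 and 169 in KO Torin1. Its footprints were at 157 and 185 CPM in ctrl DMSO and 79.6, 69.9 and 64.7 in ctrl Torin1, and at 171, 169 and 174 in KO DMSO and 93.0, 83.3 and 88.0 in KO Torin1. Thus, with Torin1 every library had more Eif4a2 mRNA and fewer footprints than any DMSO library of its line. Footprints fell by 1.24 on the log2 scale (SE 0.16, adjusted p = 2.07e-05, edgeR's quasi-likelihood test) in ctrl and by 0.98 (SE 0.12, adjusted p = 5.56e-08) in KO, which is 2.36-fold and 1.97-fold lower. The mRNA rose by 0.61 (SE 0.08, adjusted p = 7.10e-04) in KO, whereas the change of 0.46 in ctrl missed the threshold (SE 0.12, adjusted p = 0.0599). That value passed with the replicate number as a block (adjusted p = 0.0120), with DESeq2 (0.0205), with all conditions in one fit (0.0125) and without RNA-seq ctrl DMSO replicate 1 (log2 fold change 0.57, adjusted p = 0.0401) or 3 (0.44, 0.0496).

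The TE of Eif4a2 was 1.24 and 1.71 in ctrl DMSO and 0.541, 0.449 and 0.420 in ctrl Torin1. In KO it was 1.55, 1.61 and 1.43 with DMSO and 0.588, 0.451 and 0.520 with Torin1. The log2 fold change of TE was -1.70 (SE 0.20, adjusted p = 7.85e-06, edgeR's quasi-likelihood test) in ctrl and -1.58 (SE 0.14, adjusted p = 1.22e-09) in KO, a fall of 3.24-fold and 3.00-fold. It was the lowest TE change among the members in both lines, and 1.32% of all transcripts in ctrl and 2.96% in KO had a value as low. The footprint and TE falls were called under each alternative and without any single library, with log2 fold changes from -1.37 to -1.02 for footprints and from -1.83 to -1.52 for TE in ctrl, and from -1.03 to -0.73 and from -1.66 to -1.34 in KO.

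Eif4a1, the abundant helicase of eIF4F, changed much less. Its footprints were at 1186 and 999 CPM in ctrl DMSO and at 951, 1001 and 978 in ctrl Torin1, and at 1207, 1217 and 1351 in KO DMSO and 1145, 1013 and 1008 in KO Torin1. The groups overlapped in ctrl and did not in KO. Footprints fell by 0.27 in KO (SE 0.10, adjusted p = 0.0335, edgeR's quasi-likelihood test), and the log2 fold change in ctrl was -0.17 (SE 0.14, adjusted p = 0.453), which turned to 0.05 without scaling beyond library size. The call in KO was lost without scaling (adjusted p = 0.860), in the fit of all conditions (0.0645), and without KO DMSO replicate 2 or 3 (0.0547 and 0.0933) or KO Torin1 replicate 2 or 3 (0.142 and 0.128). RNA-seq changed by -0.09 (SE 0.11, adjusted p = 0.626) in ctrl and -0.07 (SE 0.06, adjusted p = 0.503) in KO, and TE by -0.07 (SE 0.17, 95% interval -0.41 to 0.27) in ctrl and -0.20 (SE 0.12, 95% interval -0.43 to 0.03) in KO, where both TE values were above 0 without scaling (0.10 and 0.04).

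For Eif4a3 no change with Torin1 was called, within the limits set by its copies. Footprints were at 326 and 348 CPM in ctrl DMSO and 252, 281 and 263 in ctrl Torin1, without overlap, and at 295, 324 and 325 in KO DMSO and 333, 316 and 269 in KO Torin1, with overlap. The log2 fold change was -0.34 in ctrl (SE 0.14, adjusted p = 0.115, edgeR's quasi-likelihood test), which passed with the replicate number as a block (-0.39, adjusted p = 0.0301), and -0.06 in KO (SE 0.11, adjusted p = 0.712), which turned to 0.19 without scaling. RNA-seq changed by -0.30 (SE 0.11, adjusted p = 0.148) in ctrl and by -0.18 (SE 0.07, adjusted p = 0.128) in KO, and the ctrl value passed in the fit of all conditions (adjusted p = 0.0387) and without ctrl DMSO replicate 3 (-0.37, adjusted p = 0.0430). TE changed by -0.03 (SE 0.17, adjusted p = 0.958) in ctrl, which was 0.14 without scaling, and by 0.12 (SE 0.13, adjusted p = 0.517) in KO, which was called without scaling (0.37, adjusted p = 0.0188). Summing Eif4a3 with both copies, an alternative chosen after the data were seen, gave footprint changes of -0.29 in ctrl and -0.08 in KO and made no call (TE 0.01 and 0.10).

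Of the cofactors, Eif4b followed Eif4a2. Its RNA-seq level was 713, 662 and 745 CPM in ctrl DMSO and 898, 804 and 855 in ctrl Torin1, and 718, 697 and 720.2 in KO DMSO and 881, 819 and 849 in KO Torin1. Footprints were at 481 and 508 CPM in ctrl DMSO and 227, 231 and 282 in ctrl Torin1, and at 388, 495 and 412 in KO DMSO and 223, 234 and 207 in KO Torin1. As for Eif4a2, every treated library had more mRNA and fewer footprints than the DMSO libraries of its line. Footprints fell by 1.00 on the log2 scale (SE 0.15, adjusted p = 7.30e-05, edgeR's quasi-likelihood test) in ctrl and by 0.99 (SE 0.11, adjusted p = 1.89e-08) in KO, which is 2.00-fold and 1.98-fold lower. The mRNA rose by 0.26 in KO (SE 0.06, adjusted p = 0.0193), and the change in ctrl was 0.27 (SE 0.11, adjusted p = 0.174). The KO call was lost in the fit of all conditions (adjusted p = 0.0618) and without RNA-seq KO DMSO replicate 1 (0.0541) or KO Torin1 replicate 1, 2 or 3 (0.0929, 0.0658 and 0.0995), while the fit of all conditions called the ctrl value (0.0329).

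The TE of Eif4b was 0.675 and 0.683 in ctrl DMSO and 0.253, 0.287 and 0.330 in ctrl Torin1, and 0.541, 0.711 and 0.573 in KO DMSO and 0.252, 0.285 and 0.244 in KO Torin1. With Torin1 it was the lowest of the 7 in both lines (0.290 ± 0.0386 in ctrl and 0.261 ± 0.0220 in KO, SD, n = 3). Its log2 fold change was -1.27 (SE 0.18, adjusted p = 5.04e-05, edgeR's quasi-likelihood test) in ctrl and -1.24 (SE 0.13, adjusted p = 3.10e-08) in KO. The falls of footprints and TE were called under each alternative and without any single library, with footprint values from -1.10 to -0.79 in ctrl and from -1.06 to -0.74 in KO.

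Eif4h encodes a smaller cofactor that shares part of its sequence with eIF4B. It had 444 and 565 footprint CPM in ctrl DMSO and 334, 368 and 337 in ctrl Torin1, and 468, 413 and 355 in KO DMSO and 321, 310.4 and 327 in KO Torin1. The groups did not overlap. Footprints fell by 0.53 (SE 0.15, adjusted p = 0.0201, edgeR's quasi-likelihood test) in ctrl and by 0.39 (SE 0.11, adjusted p = 0.00672) in KO. RNA-seq changed by 0.01 (SE 0.10) in ctrl and -0.06 (SE 0.06) in KO, neither called, and TE by -0.54 (SE 0.17, adjusted p = 0.0897) and -0.33 (SE 0.13, adjusted p = 0.0645). The footprint call was lost without scaling in both lines (adjusted p = 0.135 in ctrl and 0.319 in KO) and, in ctrl, without ctrl DMSO replicate 3 (log2 fold change -0.36, adjusted p = 0.0757) or ctrl Torin1 replicate 2 or 3 (0.0615 and 0.112). TE was called in KO with the replicate number as a block (-0.33, adjusted p = 0.0329) and without RNA-seq KO DMSO replicate 2 (0.0409) or ribo-seq KO DMSO replicate 3 (-0.40, adjusted p = 0.0141), and in ctrl in the fit of all conditions (0.0220) or without ribo-seq ctrl DMSO replicate 1 (-0.71, adjusted p = 0.0367).

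**Figure D3:**
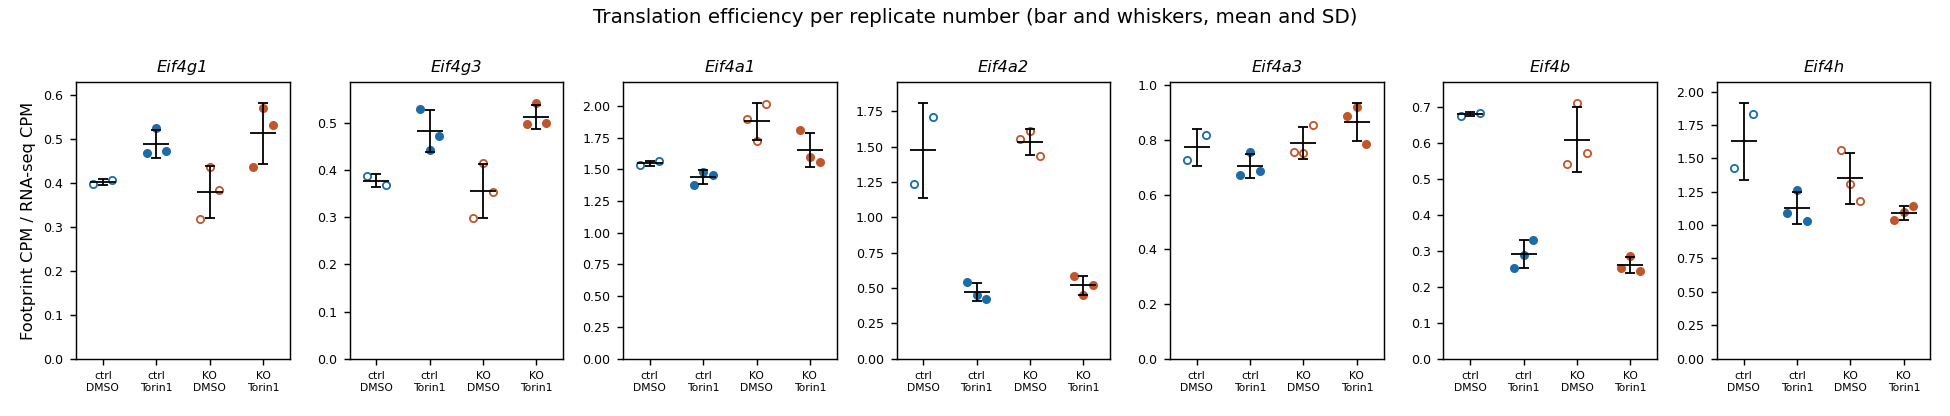
TE of the 7 members, as the ratio of footprint to RNA-seq CPM of the same replicate number, in each condition on linear axes from 0. Points are replicate numbers (open, DMSO; filled, Torin1) and bars with whiskers the mean and SD. With Torin1 the TE of Eif4a2 is 0.470 in ctrl and 0.520 in KO, close to that of both scaffolds (0.482 to 0.513), and that of Eif4b is lowest.

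The opposite movement of mRNA and footprints can be read as ratios between members, which do not depend on the scaling between libraries. Per kb of CDS, Eif4a1 exceeded Eif4a2 in RNA-seq by 6.61 ± 1.03 times (SD, n = 3) in ctrl DMSO and 4.47 ± 0.201 times in ctrl Torin1. In footprints the same ratio was 6.50 ± 1.52 (n = 2) in ctrl DMSO and 13.8 ± 1.66 in ctrl Torin1. The balance of the helicases therefore shifted toward Eif4a2 in mRNA and toward Eif4a1 in footprints, and no treated library overlapped with the DMSO libraries. KO gave 6.02 ± 0.664 and 3.76 ± 0.293 in RNA-seq and 7.35 ± 0.370 and 12.0 ± 0.459 in footprints (n = 3), again without overlap. The ratio of Eif4b to Eif4h moved in the same manner, from 0.862 ± 0.0381 to 1.04 ± 0.0555 in RNA-seq of ctrl and from 0.873 ± 0.0402 to 1.09 ± 0.0231 in KO, while in footprints it was 0.371 ± 0.0482 and 0.267 ± 0.0411 in ctrl and 0.398 ± 0.0763 and 0.259 ± 0.0225 in KO. Between the scaffolds the ratio of Eif4g1 to Eif4g3 was 4.36 ± 0.327 in RNA-seq of ctrl DMSO, and the means of every condition and assay were between 3.91 and 4.62. In footprints of ctrl it was 4.47 ± 0.0648 (n = 2) with DMSO and 3.96 ± 0.246 with Torin1. In footprints of KO it was 4.62 ± 0.0386 with DMSO and 3.97 ± 0.0488 with Torin1. Every treated footprint library was below the DMSO libraries of its line, whereas in RNA-seq the groups overlapped. The ratio of Eif4a1 to Eif4a3 was between 1.58 and 1.83 in RNA-seq and between 3.29 and 4.05 in footprints.

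**Figure D4:**
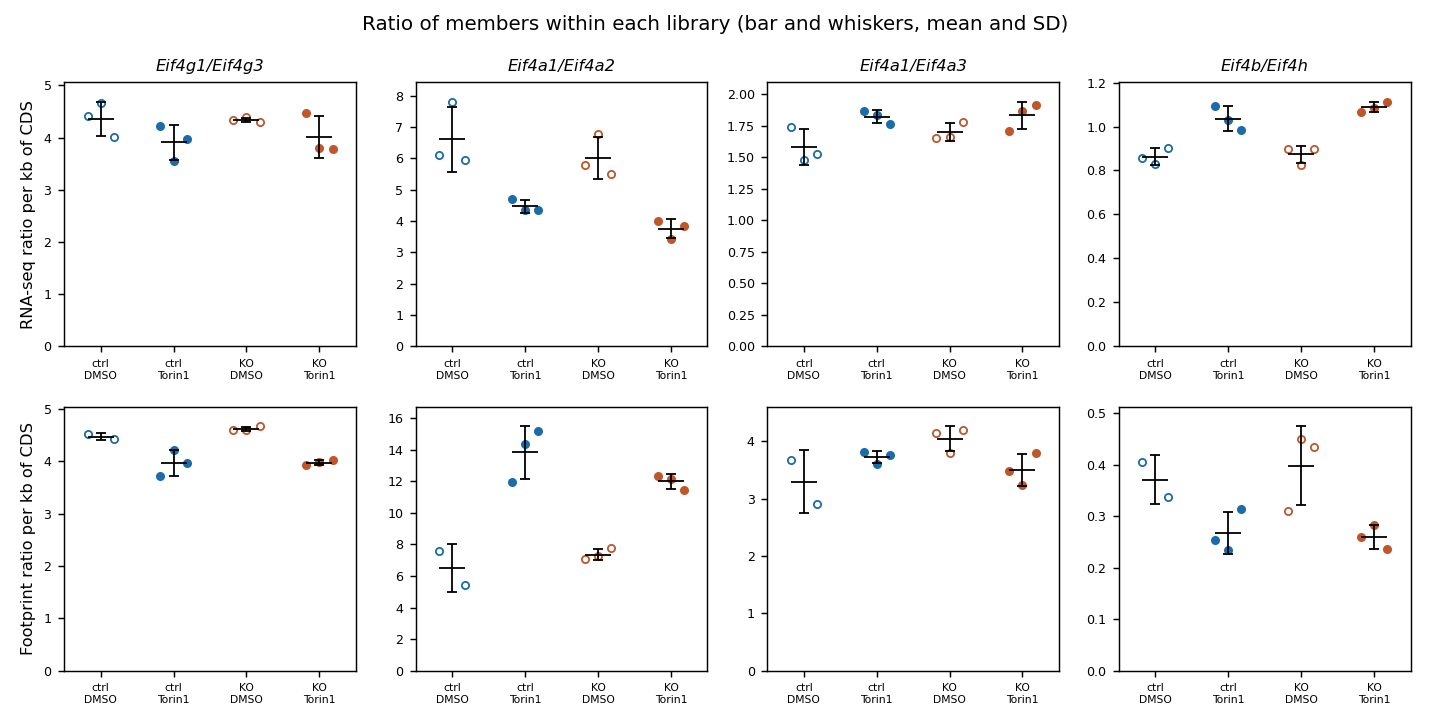
Ratios of 2 members within each library, per kb of CDS, in RNA-seq (top) and footprints (bottom), on linear axes from 0. Points are libraries (open, DMSO; filled, Torin1), and bars with whiskers the mean and SD. Eif4a1/Eif4a2 is 3.44 to 4.70 in RNA-seq with Torin1, below all DMSO libraries, and 11.5 to 15.2 in footprints with Torin1, above all of them (5.43 to 7.77).

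Whether these mRNAs differed between KO and ctrl was tested in each treatment and as an interaction of genotype and Torin1. Replicates were passages of a selected population per genotype. Loss of eIF4E3 therefore cannot be told apart from other differences between the populations. With DMSO no member was called between KO and ctrl in RNA-seq, footprints or TE, where 0.0183%, 0.0279% and 0% of transcripts were called (646, 850 and 426 had an unadjusted p under 0.05, and DESeq2 called 21, 3 and 0). The largest difference in footprints was that of Eif4h, at -0.28 (95% interval -0.61 to 0.04, adjusted p = 0.690, edgeR's quasi-likelihood test), and for Eif4a2 the interval was -0.28 to 0.33. With Torin1 none was called either, where 1.96%, 6.03% and 2.85% of transcripts were called (1954, 2187 and 1776 at an unadjusted p under 0.05, and 342, 422 and 506 by DESeq2, none a member). In RNA-seq Eif4a2 had the largest difference relative to its SE, with 71.4 ± 7.55 footprint CPM in ctrl and 88.1 ± 4.82 in KO and RNA-seq levels of 152 ± 4.50 and 171 ± 13.4 CPM (SD, n = 3). Its differences were 0.17 in RNA-seq (SE 0.06, adjusted p = 0.156) and 0.31 in footprints (95% interval 0.04 to 0.58, adjusted p = 0.182). In TE it was Eif4a3, with 0.704 ± 0.0446 in ctrl and 0.866 ± 0.0703 in KO and a log2 difference of 0.30 (95% interval 0.09 to 0.52, adjusted p = 0.133). With the replicate number as a block, Eif4a2 in RNA-seq (0.17, adjusted p = 0.0228) and Eif4a3 in TE (0.30, adjusted p = 0.0315) were called, and the latter also without ribo-seq KO Torin1 replicate 3. The sequence that Eif4a3 shares with its copies limits its values here too. Sums with the copies were made only for Torin1 against DMSO.

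In the interaction test no member differed in its response to Torin1 between KO and ctrl, where 0% of transcripts were called in RNA-seq, 0.113% in footprints and 0% in TE (108, 731 and 599 with an unadjusted p under 0.05, and 0, 37 and 16 called by DESeq2, none a member). For footprints the interaction term was 0.28 for Eif4a2 (95% interval -0.11 to 0.66), 0.03 for Eif4b (-0.33 to 0.39), 0.08 for Eif4g3 (-0.32 to 0.48) and 0.30 for Eif4a3 (-0.05 to 0.64). The TE terms were 0.14 for Eif4a2 (-0.32 to 0.59) and 0.06 for Eif4b (-0.34 to 0.46).

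The members were then set beside other genes of the pathway. Of 19 binding partners and regulators of eIF4F, 18 were tested in footprints, of which 4 fell and 2 rose in ctrl and 5 fell and 1 rose in KO, with a median log2 fold change of -0.14 and -0.03. Over all transcripts 9.93% were called lower and 5.69% higher in ctrl, and 22.1% and 18.5% in KO. Eif3e, which fell in both lines, is also among the 12 TOP mRNAs below. Pabpc1, the poly(A)-binding protein that contacts eIF4G, fell by 2.79 in footprints of ctrl (SE 0.17, adjusted p = 1.66e-09, edgeR's quasi-likelihood test) and by 2.99 in KO (SE 0.14, adjusted p = 1.02e-17). Its TE changed by -2.90 in ctrl (adjusted p = 1.15e-08), which is within the range of the TOP mRNAs given below. Eif4ebp1, which encodes 4E-BP1, fell by 1.23 (SE 0.15, adjusted p = 1.16e-05) and 1.25 (SE 0.13, adjusted p = 2.98e-09). Its mRNA also fell, with changes of -0.57 in ctrl (adjusted p = 0.0154) and -0.48 in KO (adjusted p = 0.00741). Its TE changed by -0.66 in ctrl (adjusted p = 0.0487). Pdcd4, the inhibitor of eIF4A, rose by 1.89 in ctrl (SE 0.19, adjusted p = 1.03e-06) and by 1.55 in KO (SE 0.14, adjusted p = 1.10e-10), and its mRNA rose by 1.47 and 1.61. In TE 3 partners fell in ctrl and 4 in KO, and none rose, where 4.29% and 17.8% of all transcripts were called lower. Among 5 genes that act with eIF4A3 in the exon junction complex none was called by edgeR in footprints or TE for Torin1 against DMSO in either line, with median TE changes of 0.16 and 0.25. Between KO and ctrl with Torin1, 1 of the 5 was called, Rbm8a, a core subunit of that complex. Over all transcripts 6.03% were called in footprints and 2.85% in TE. Rbm8a was lower in KO by log2 fold changes of -0.57 in footprints (SE 0.11, adjusted p = 9.41e-04) and -0.44 in TE (SE 0.12, adjusted p = 0.0466). Its footprint difference with DMSO was -0.31 (adjusted p = 0.706) and its interaction term was -0.26 (adjusted p = 0.914), neither called. Also lower in KO footprints with Torin1 were 2 of 18 eIF4F partners (among them Eif4e3) and 1 of the 12 TOP mRNAs below. In TE these counts were 1 and 0. For 12 TOP mRNAs that do not encode ribosomal proteins, footprints fell for all 12 in both lines, with medians of -1.87 and -2.12, and TE fell for 11 in ctrl and 12 in KO, with medians of -1.71 and -2.08. Eef1a1, the main elongation factor, changed by -3.41 and -3.58 in TE. The TOP mRNAs ranged from -3.61 to -0.67 in ctrl and from -3.72 to -0.96 in KO in TE, a range that held Eif4a2 and Eif4b and none of the other 5 members.

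**Figure D5:**
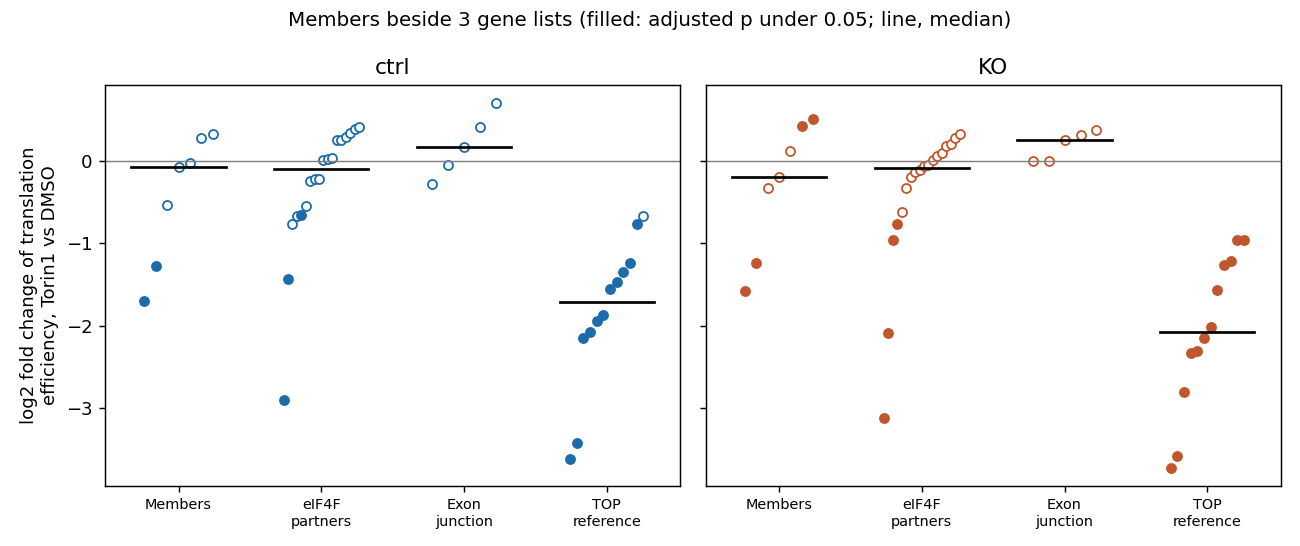
The log2 fold change of TE with Torin1 against DMSO for the 7 members, 18 tested partners of eIF4F, 5 exon junction genes and 12 TOP mRNAs, in ctrl (left) and KO (right). Each point is a gene, filled where the adjusted p was under 0.05, and the line is the median (for the members -0.07 in ctrl and -0.20 in KO, for the TOP mRNAs -1.71 and -2.08).

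Finally, the transcripts with the most similar footprint profile over the 11 ribo-seq libraries were looked up among 6661 with at least 50 footprints on average. Those libraries share their treatment groups, so the values are descriptive. The nearest to Eif4a2 were Tubb3 (r = 0.985), a neuronal tubulin, Naca (0.982), a subunit of the nascent polypeptide-associated complex, and Tubb2a (0.981). For Eif4b they were Eef1a2 (0.988), the elongation factor of neurons and muscle, Ggt7 (0.980) and Slc38a10 (0.976). Eif4h was nearest to Mlycd, Nop53 and Rbm3 (0.961, 0.961 and 0.945). Eif4g1 was nearest to Usp33 (0.972), Nup155 (0.968) and Kif22 (0.951), and Eif4g3 to Kdm5a (0.981), Tmpo (0.975) and Chd6 (0.971). Eif4a1 lay near Bub3, Cops3 and Ascc1 (0.968, 0.960 and 0.942), while the values for Eif4a3 were lower (Sgf29, 0.869, Ilf2, 0.847, and Vma21, 0.834). Among the members themselves r was 0.956 between both scaffolds and 0.889 between Eif4a2 and Eif4b, and it was between -0.824 and -0.679 for either scaffold with Eif4a2 or Eif4b.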

How the data were processed

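RNA-seq and ribo-seq counts of N2a cells were used in 4 conditions. The authors trimmed reads with cutadapt, mapped them with HISAT2 (mm10) and bowtie2 (canonical Ensembl transcripts) and deposited counts per CDS without normalization, which for ribo-seq are P-sites predicted by riboWaltz. Columns with the authors' own fold changes and p-values, and the tables of TE, were not used. Ribo-seq ctrl DMSO replicate 2 was not analysed here, and in the RNA-seq table of KO DMSO against ctrl DMSO a pair of columns per genotype carries the same replicate number and was used without a number.

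Transcripts were kept where their CPM, here scaled to the library total alone, was over 1 in every library of at least 1 condition. They were fitted with edgeR 4.0.16 in R 4.3.3 (TMM scaling, quasi-likelihood test, Benjamini-Hochberg adjustment over all transcripts, threshold 0.05). TE was tested as the interaction of assay and condition. SE is the log2 fold change divided by the square root of F, and 95% intervals use the normal quantile. They can thus be narrower than the quasi-likelihood test allows. For footprints of Eif4g1 in ctrl with Torin1 the interval was 0.01 to 0.57, with an unadjusted p of 0.0570 in that test. Alternatives were DESeq2 1.42.0, other scalings, no filter, a replicate block, all conditions in one fit and each library left out. The fit was tested on simulated data. Transcript structure came from GENCODE M21 (GRCm38), matched for 12703 of 12759 transcripts.

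All members are named, with, from each list, up to 3 genes of smallest adjusted p, with Eef2 and Eif3f added to show start sites after their values were seen. Members and lists were chosen with earlier results of these data known. Depth limits the ribo-seq most (669244 counts in the smallest library). The main tests were unpaired. Since replicates were separate cell passages per the labels, an alternative fitted their number as a block. After removal of condition means, r between libraries of one number was -0.04 to 0.66 in RNA-seq (over 0.1 in 10 of 18 pairs) and -0.04 to 0.12 in ribo-seq (3 of 15). Between different numbers r was over 0.1 in 2 of 36 pairs in RNA-seq and 1 of 30 in ribo-seq. On average, 12 of 12 RNA-seq and 8 of 11 ribo-seq libraries correlated best with their own number. Libraries of one number thus shared variation, mostly in RNA-seq, that the main tests did not model. The p-values measure the spread between passages.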

Additional observations from a re-analysis of the deposited data

How the results depend on the processing

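Of 580 values of single members for Torin1 against DMSO under the alternatives, 511 kept their direction and their side of the threshold. The falls of Eif4a2 and Eif4b in footprints and TE were called throughout. In RNA-seq of ctrl with Torin1, in place of no member, DESeq2 and the replicate block each called 1 (Eif4a2) and the fit of all conditions called 3. In RNA-seq of KO with Torin1 that fit called 1 in place of 2. Between KO and ctrl with Torin1 the replicate block called 1 member in RNA-seq and 1 in TE in place of 0, and the pairing moved no other count of members by over 1.5 times. Leaving out 1 library gave 0 to 2 members for RNA-seq in ctrl, 1 to 2 for RNA-seq in KO, 2 to 4 for footprints in ctrl, 2 to 5 for TE in KO and 0 to 1 for TE of KO against ctrl with Torin1.

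Changes near 0 reversed. Without scaling the log2 fold change was 0.048 for Eif4a1 and 0.19 for Eif4a3 in footprints (ctrl and KO, respectively), 0.10 and 0.14 in TE of ctrl, and 0.045 for Eif4a1 in TE of KO. Summing Eif4a3 with its copies gave 0.013 for TE in ctrl. With 1 library left out, values that crossed 0 ranged from -0.020 to 0.094 for Eif4g1 and from -0.034 to 0.049 for Eif4h in RNA-seq of ctrl, from -0.030 to 0.14 for Eif4g3 in RNA-seq of KO, from -0.13 to 0.024 for Eif4a3 in footprints of KO, and from -0.19 to 0.064 for Eif4a1 and -0.13 to 0.033 for Eif4a3 in TE of ctrl. The cause was not tested. Limits are the 2 ribo-seq libraries of ctrl DMSO, 1 of them the shallowest, the sequence that Eif4a3 shares with its copies, and the scaling, since all values are relative to the other transcripts.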
